A study of Mus musculus with 6 samples.

Results

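Aminoacyl-tRNA synthetases join each amino acid to its transfer RNA and so feed the ribosome. The family was taken as 35 genes named by symbol, and all 35 were among the 19680 genes of the table. Of these, 20 encode cytosolic enzymes and 15 encode mitochondrial ones. Lars2, the mitochondrial leucyl enzyme, was left out because its reads may be rRNA-like. The members were measured by RNA sequencing of germinal center (GC) B cells sorted from spleen as B220+ CD38- FAS+ cells. The 3 cKO libraries came from C57BL/6 mice with Senp1flox/flox and Cγ1-Cre, and the 3 WT libraries from mice with Senp1flox/flox, for which no Cre is named. All mice were 6 to 8 weeks old, had received 100 µg of the protein antigen NP-CGG intraperitoneally, and were sampled at day 14. The labels call the mice paired but do not tie replicate numbers to pairs, and the main test between genotypes used no pairing. Cγ1-Cre acts in B cells that have switched on the Cγ1 locus after antigen contact, and Senp1 encodes a protease that removes the modifier SUMO from proteins. The comparison of cKO with WT asks how transcripts of these cells differ when Senp1 is deleted by Cγ1-Cre. As no Cre is named for WT, effects of Cre itself and of Senp1 loss cannot be told apart.

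Charging of tRNA is split between the cytosol and the mitochondrion. In the cytosol several synthetases sit with scaffold proteins in a multisynthetase complex and the others work alone. Mitochondria import nuclear-encoded enzymes of their own, except that Gars and Kars serve both places and mitochondrial glutaminyl-tRNA is made through Ears2 and an amidotransferase. When an amino acid runs short, uncharged tRNA activates the eIF2 kinase GCN2, and the transcription factor ATF4 then raises many cytosolic synthetase genes. GC B cells divide fast and make much protein, so they draw on both sets of enzymes.

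Values are normalized counts, which are reads scaled by the authors to a common depth. Senp1 averaged 399 ± 26.3 normalized counts in cKO libraries and 891 ± 23.7 in WT libraries (SD, n = 3 each). The libraries held 3019152 to 9657005 gene-assigned reads in cKO and 5160902 to 10339054 in WT, of which the synthetases took 9458 to 39096 and 17981 to 42835. Replicate 1 of each group lay lowest on the first principal component, at -49.1 in cKO and -54.4 in WT, against -10.1 to 56.2 for the other libraries. These were also the deepest libraries, with 9657005 reads in cKO and 10339054 in WT. The part of depth in this component was not tested. All 12 GC B cell markers had reads in every library, with sums of 39230 to 42041 normalized counts in cKO and 41980 to 46003 in WT. Of these markers 9 had a negative and 3 a positive log2 fold change in cKO, with a median of -0.25 and 0 calls. At an unadjusted p under 0.05 by limma, 3 of the 12 were lower and 0 higher in cKO. Over all genes tested these shares were 2.17% lower and 2.98% higher. The 10 T cell markers summed to 797, 1906 and 523 in cKO replicates 1 to 3 and to 738, 765 and 672 in WT replicates 1 to 3. Whether every library stands for a separate animal is not stated, and the spread behind the p-values may be technical.

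The promoters of some cytosolic members share a short sequence that the choice of members did not use. The letters TGATGNAA, the core of the C/EBP-ATF element through which ATF4 acts, were searched on both strands (TTNCATCA is the reverse) from 250 bases before to 50 bases after each RefSeq start in GRCm38.p6. A promoter was found for 26 of the 35 members. None was taken for Cars, Hars, Lars, Nars, Rars, Vars, Wars, Hars2 and Pars2. The letters occurred in 5 of 13 cytosolic promoters, in 0 of 14 mitochondrial promoters, and in 3.97% of all 32851 promoters of the table. The 5 were those of Aars, Gars, Iars, Tars and Yars, the alanyl, glycyl, isoleucyl, threonyl and tyrosyl enzymes, and all 5 are on the list of 13 synthetases linked to ATF4. Only 8 of those 13 had a promoter to search. Of 5 promoters of cytosolic members off that list, 0 held the letters. Among 27 promoters of 22 other ATF4 target genes, 8 held the letters. A match in each of the 5 is printed because it is what these members have in common, each as 30 bases 5′ to 3′ on the gene's strand with the match in capitals.
Aars, chr8:111033840-111033869, plus strand: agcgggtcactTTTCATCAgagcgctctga
Gars, chr6:55037960-55037989, plus strand: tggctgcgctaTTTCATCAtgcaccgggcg
Iars, chr13:49682126-49682155, plus strand: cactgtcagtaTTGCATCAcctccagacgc
Tars, chr15:11399655-11399684, minus strand: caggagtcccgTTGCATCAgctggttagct
Yars, chr4:129189895-129189924, plus strand: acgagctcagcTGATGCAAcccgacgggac
The first base of the printed match lies at 10 in Aars, -30 in Gars, 8 in Iars, -15 in Tars and 4 in Yars, counted from the annotated start as 1. A match is a description of the letters and not a measured binding site.

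Cytosolic synthetases were much more abundant per unit of length than mitochondrial ones in every library. Levels between genes are compared as normalized counts per kb of merged exons. Member means over the 6 libraries ran from 54.1 (Cars) to 512 (Vars) in the cytosolic set, with a median of 142. In the mitochondrial set they ran from 5.86 (Nars2) to 70.5 (Rars2), with a median of 23.6. Of the 20 highest members, 19 were cytosolic, and the same number held per kb of coding length. The level summed over the 20 cytosolic members was 8.34, 7.62 and 7.15 times that summed over the 15 mitochondrial ones in cKO replicates 1 to 3, against 8.94, 8.03 and 8.33 times in WT replicates 1 to 3. The groups overlapped in this ratio, since cKO replicate 1 lay above WT replicates 2 and 3.

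**Figure D1:**
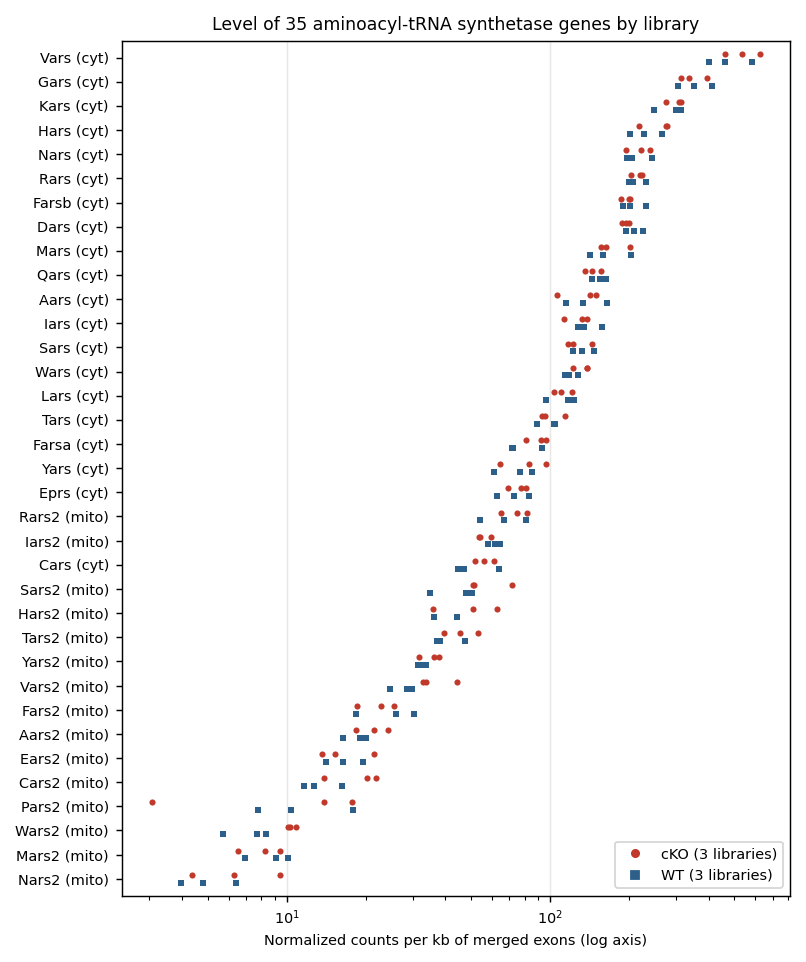
Level of each of the 35 synthetase genes (rows, ordered by mean) in normalized counts per kb of merged exons on a log axis, with circles for 3 cKO libraries and squares for 3 WT libraries. Vars is highest at a mean of 512 and Nars2 lowest at 5.86, and the genotypes are intermixed in most rows.

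Vars, the valyl enzyme of the cytosol, was the most abundant member. It reached 627, 463 and 535 normalized counts per kb in cKO replicates 1 to 3, against 583, 462 and 403 in WT replicates 1 to 3. Gars, the glycyl enzyme, followed at 395, 313 and 336 per kb in cKO and 413, 353 and 305 in WT. Kars, the lysyl enzyme, had 309, 275 and 313 per kb in cKO and 315, 299.5 and 249 in WT. The groups overlapped in all 3 genes, and in WT replicate 1 was the highest each time. At the low end, Nars2, the mitochondrial asparaginyl enzyme, had 6.30, 4.36 and 9.38 per kb in cKO and 4.79, 3.97 and 6.38 in WT. Mars2, the mitochondrial methionyl enzyme, had 6.53, 8.23 and 9.40 per kb in cKO and 6.94, 9.05 and 10.1 in WT. The groups overlapped in these genes too. All 34 pairs of neighbours in the order of levels had overlapping ranges over the libraries, so only wider steps in the order exceed the spread. Per kb of coding length Vars was still highest (749) and Pars2, the mitochondrial prolyl enzyme, was lowest (23.7), while Gars moved to place 5.

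No synthetase passed the test between genotypes. Limma called 0 of 35 members at an adjusted p under 0.05, and over all 14678 genes tested it called 0 (0.0%). The smallest adjusted p over all genes was 0.111 by limma. The test therefore did not call Senp1 either, although Senp1 averaged 399 normalized counts in cKO and 891 in WT. A count of 0 calls, here and below, does not show that genes are unchanged. At an unadjusted p under 0.05 there were 0 members, beside 438 higher (2.98%) and 318 lower genes (2.17%) over the whole table, 5.15% together. The smallest adjusted p of a member was 0.915, shared by Vars2, Wars2 and Cars2, and every member's 95% confidence interval spanned 0. DESeq2 on recovered reads called 20 genes and edgeR and limma-voom 0, with no member among them. Of the genes in the authors' deposited table, 23 have an adjusted p under 0.05, and no member is among them.

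**Figure D2:**
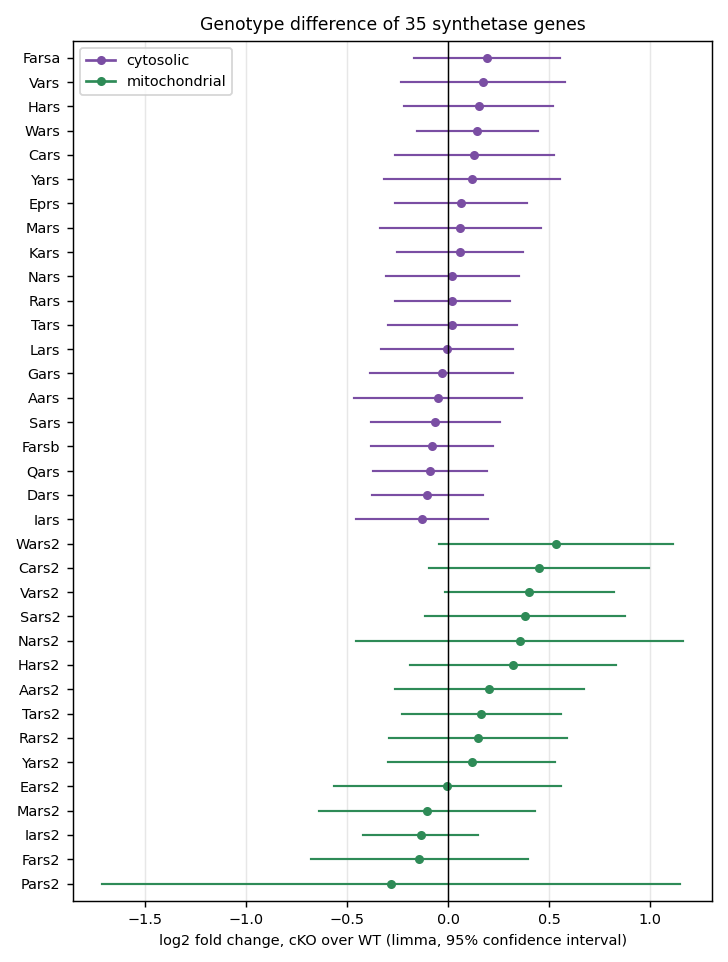
Log2 fold change of cKO over WT for each synthetase (points) with its 95% confidence interval from limma (lines), cytosolic members above mitochondrial ones. All 35 intervals cross 0, the cytosolic points lie between -0.13 and 0.19, and 6 mitochondrial points lie above 0.3.

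The cytosolic members differed little between the genotypes. Their log2 fold changes ran from -0.13 (Iars, the isoleucyl enzyme) to 0.19 (Farsa, the catalytic subunit of the phenylalanyl enzyme), with 12 positive and 8 negative. The 95% intervals reached at most 0.724-fold at the low end (Aars) and 1.49-fold at the high end (Vars), so larger changes of a cytosolic member lie outside these intervals. The median was 0.02, beside 0.00 over all genes tested. With libraries scaled by their totals alone it was -0.06, beside -0.08 over all genes. Over all genes 49.8% had a positive log2 fold change.

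Members of the multisynthetase complex had log2 fold changes of -0.13 to 0.06, with 4 positive and 4 negative. Eprs, which charges tRNA with both glutamate and proline, had 1401, 1255 and 1460 normalized counts in cKO replicates 1 to 3 and 1500, 1314 and 1141 in WT replicates 1 to 3. Kars had 1378, 1226 and 1397 in cKO and 1407, 1337 and 1111 in WT. Mars, the methionyl enzyme that supplies initiator tRNA, had 690, 533 and 560 in cKO and 694, 542 and 484 in WT. In each of these 3 genes WT replicate 3 was lowest and the groups overlapped. Rars, the arginyl enzyme, had 708, 657 and 719 in cKO and 747, 666 and 643 in WT. Lars, the leucyl enzyme, had 592, 554 and 649.5 in cKO and 661, 628 and 519 in WT. The log2 fold changes of these 5 genes lay between -0.01 and 0.06, well inside their intervals. With library totals alone, Eprs, Kars, Mars and Rars turned negative, at -0.02 to -0.06, while the median of all genes moved to -0.08. Lars was 0.03 with quantile normalization. Dars, Iars and Qars, the aspartyl, isoleucyl and glutaminyl enzymes, had lower cKO means, at log2 fold changes of -0.10 (95% confidence interval -0.38 to 0.17), -0.13 (-0.45 to 0.20) and -0.09 (-0.37 to 0.19). Of the 3 scaffold genes of the complex, 0 passed the test. Eef1e1 measured 149, 167 and 231 in cKO and 116, 156 and 172 in WT, with overlap. Aimp2 measured 192, 140.5 and 155 in cKO and 177, 161 and 111 in WT. Aimp1 measured 483, 391 and 390.1 in cKO and 455, 418 and 424 in WT. Both overlapped between the groups as well.

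The 12 cytosolic enzymes outside the complex had log2 fold changes of -0.08 to 0.19, with 8 positive and 4 negative. Vars had 3516, 2596 and 3003 normalized counts in cKO and 3270, 2592 and 2258 in WT. Gars had 1233, 977 and 1048 in cKO and 1289, 1102 and 951 in WT. Nars, the asparaginyl enzyme, had 960.4, 843 and 1046 in cKO and 1062, 894 and 852 in WT. The groups overlapped in all 3. Tars had 562, 549 and 669.97 in cKO and 617, 608 and 528 in WT. Nars and Tars were at 0.02 on the log2 fold change scale and at -0.06 with library totals alone, a shift that the median of all genes shared. Gars was at -0.03, and at 0.01 with quantile normalization. Wars, the tryptophanyl enzyme and a known target of interferon gamma, had 476, 476 and 421 in cKO and 441, 406 and 394 in WT. Replicates 1 and 2 of cKO lay above all WT libraries, and replicate 3 did not. Sars, the seryl enzyme, had 743, 630.1 and 598 in cKO and 753, 677 and 626 in WT, again with overlap. The remaining members of this set (Aars, Cars, Farsa, Farsb, Hars and Yars) also overlapped between the groups, with adjusted p-values of 0.930 to 0.984.

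Of the 15 mitochondrial members, 10 had a higher value in cKO and 5 a lower one on the log2 scale, and none passed the test. Over all genes 49.8% were positive. The median log2 fold change of these members was 0.16 beside 0.00 over all genes tested. It was 0.085 with library totals alone, where the median of all genes was -0.08. The mitochondrial median was 0.31 without cKO replicate 2 and 0.080 without cKO replicate 3. Groups did not overlap in 3 of the 15, all higher in cKO, and in 0 of the 20 cytosolic members. That is 20% of the mitochondrial and 8.57% of all 35 members, beside 6.28% of all genes tested that were higher in every cKO library. In the other direction there were 0 members, beside 5.28% of all genes.

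Wars2, the mitochondrial tryptophanyl enzyme, had the largest log2 fold change of the family. It measured 60.2, 64.5 and 61.3 normalized counts in cKO replicates 1 to 3, against 33.9, 45.8 and 49.6 in WT replicates 1 to 3. Every cKO library was above every WT library, and WT replicate 1 was the lowest of the 6. The means were 62.0 ± 2.3 in cKO and 43.1 ± 8.2 in WT (SD, n = 3 each). The log2 fold change was 0.53 ± 0.25 (SE), or 1.45-fold, and limma gave an adjusted p of 0.915 and a 95% interval of -0.04 to 1.11 on the log2 scale. These values rest on 111, 34 and 30 reads in cKO and 67, 43 and 58 in WT. Between the replicate 1 libraries alone the log2 fold change was 0.81, and over replicates 2 and 3 it came to 0.39. Its unadjusted p was 0.066 by limma in the main fit. It was under 0.05 in 2 of 19 alternative fits, at 0.0376 by limma-voom and 0.0477 with a term for replicate 1. Wars2 (ENSMUSG00000004233) lies on chromosome 3 at 99141068 to 99239186 of GRCm38.

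Vars2, the mitochondrial valyl enzyme, was apart in the same way. It measured 179, 184 and 241 normalized counts in cKO and 135, 155 and 163 in WT. The groups did not touch, and cKO replicate 3 was well above the other libraries. Vars2 averaged 201 ± 34.4 in cKO and 151 ± 14.6 in WT (SD, n = 3 each). The log2 fold change was 0.40 ± 0.18 (SE), or 1.32-fold, with a 95% interval of -0.01 to 0.82 on the log2 scale and an adjusted p of 0.915 from limma. It was 0.40 within replicate 1 and 0.40 within replicates 2 and 3. The unadjusted p was 0.0566 by limma in the main fit and under 0.05 in 4 of 19 alternative fits. With a term for replicate 1 the unadjusted p was 0.0295 and the adjusted p 0.511. On chromosome 17 of GRCm38, Vars2 (ENSMUSG00000038838) spans 35655634 to 35667592, where an antisense gene overlaps it. No source used here gives the strand setting of the counting, so reads of the pair cannot be told apart.

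Sars2, the mitochondrial seryl enzyme (ENSMUSG00000070699, chromosome 7 at 28741992 to 28753871), measured 168.1, 170.8 and 236.9 normalized counts in cKO and 167.8, 158.6 and 115.3 in WT. Replicate 1 had nearly the same value in both groups, so the gap between the groups was small. The log2 fold change was 0.38 ± 0.22 (SE), with a limma adjusted p of 0.926, and it was 0.0023 within replicate 1 and 0.57 within replicates 2 and 3. Cars2 and Hars2, chosen after their values were seen, had overlapping groups and an unadjusted p under 0.05 in 2 alternative fits each. Cars2, the cysteinyl enzyme, had 146, 158 and 100.1 in cKO and 117, 91.6 and 83.7 in WT. Hars2, the histidyl enzyme, had 218, 154 and 268 in cKO and 190.1, 155 and 155 in WT. In Cars2 replicate 3 was the lowest cKO library and in Hars2 it was the highest. Hars2 and Hars overlap at their 5′ ends on opposite strands of chromosome 18. Cars2 and Naxd overlap at their 3′ ends, also on opposite strands. Reads in these overlaps cannot be told apart without strand.

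The other mitochondrial members varied as widely within a group as between groups. Nars2 had 43.9, 30.4 and 65.4 normalized counts in cKO and 33.4, 27.7 and 44.4 in WT. Mars2 had 73.7, 93.0 and 106 in cKO and 78.4, 102 and 114 in WT. Pars2 had 54.8, 9.49 and 42.9 in cKO and 55.1, 31.9 and 23.9 in WT. The lowest Pars2 value, in cKO replicate 2, came from 5 reads, and its log2 fold change of -0.28 had a 95% confidence interval of -1.71 to 1.15. Iars2, the most abundant mitochondrial member per coding kb, had a log2 fold change of -0.14 (95% confidence interval -0.42 to 0.15). Ears2, the glutamyl enzyme, had 78.1, 70.2 and 110.3 in cKO and 83.9, 100.1 and 72.6 in WT, and its sign changed between tools. Aars2, Fars2, Rars2, Tars2 and Yars2 had log2 fold changes of -0.14 to 0.20 with overlapping groups.

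A ratio of the cytosolic and mitochondrial enzyme for the same amino acid does not depend on how libraries are scaled. Over 16 such pairs the mean ratio per kb ran from 2.28 (Iars over Iars2) to 39.7 (Nars over Nars2), and its mean was lower in cKO for 9 pairs and higher for 7. One of the higher pairs, Eprs over Pars2, was 4.37, 22.6 and 5.82 in cKO and 4.65, 7.03 and 8.15 in WT. Its higher cKO mean rests on replicate 2, where Pars2 had 5 reads. The groups did not overlap in 2 of the 16 pairs, a share close to the 11.6% of all genes tested that were apart singly. No such share was taken for ratios of other genes, and Eprs and Fars2 each enter 2 pairs. Aars over Aars2, the alanyl pair, was 6.19, 5.80 and 6.61 in cKO and 8.22, 6.99 and 7.06 in WT. Aars had 1386, 987 and 1315 normalized counts in cKO and 1521, 1232 and 1069 in WT, and Aars2 had 115, 87.3 and 102 in cKO and 95.04, 90.5 and 77.7 in WT. Each gene overlapped between the groups while their ratio did not. The Aars2 values of cKO replicates 2 and 3 rest on 46 and 50 reads. Wars over Wars2 was 13.6, 12.7 and 11.8 in cKO and 22.5, 15.3 and 13.7 in WT. In the tryptophanyl pair the closest libraries, cKO replicate 1 and WT replicate 3, differed little. Wars2, the denominator, was already apart between the groups by itself, so the tryptophanyl ratio is not a separate observation. Vars over Vars2 was 19.1, 13.7 and 12.1 in cKO and 23.6, 16.2 and 13.5 in WT, with overlap. Sars over Sars2 was 2.85, 2.38 and 1.63 in cKO and 2.89, 2.75 and 3.50 in WT. Replicate 1 of cKO lay between the WT values, so these groups overlapped too. An exact two-sided permutation test of 3 against 3 cannot go below 0.1, so none was used for these ratios.

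**Figure D3:**
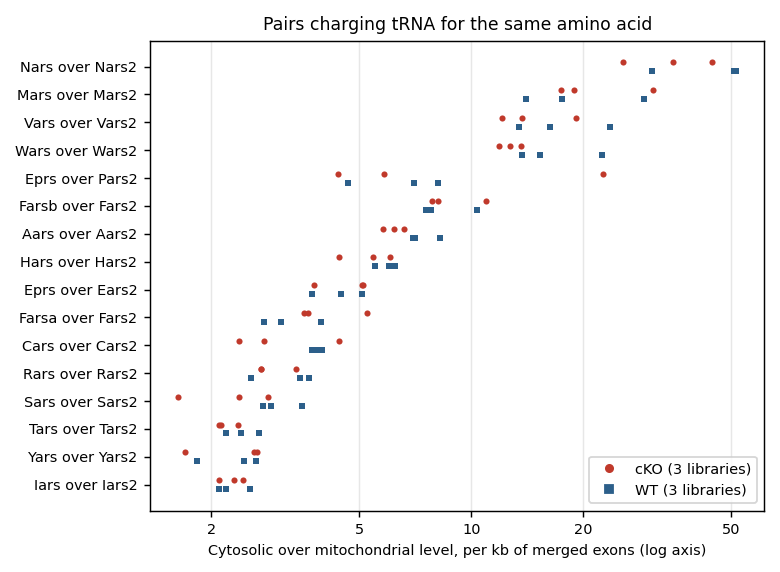
Ratio of the cytosolic to the mitochondrial synthetase level per kb of merged exons for 16 pairs that charge tRNA for the same amino acid (log axis), with circles for 3 cKO and squares for 3 WT libraries. The alanyl and tryptophanyl pairs are the 2 in which all cKO points lie to the left of all WT points.

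Cytosolic members also differed between libraries of the same genotype. Deviations are given as log2(normalized count + 1) minus the gene's mean over the 6 libraries. The median cytosolic deviation was 0.07, -0.11 and 0.08 in cKO replicates 1 to 3 and 0.16, -0.01 and -0.20 in WT replicates 1 to 3. So cytosolic members were highest in WT replicate 1 and lowest in WT replicate 3, with cKO replicate 2 next lowest. WT replicate 1 was the highest WT library in 19 of 20 members (38.3% of all genes tested). WT replicate 3 was the lowest WT library in 18 of 20 (34.8% of all genes), and cKO replicate 2 the lowest cKO library in 17 of 20 (34.7% of all genes). These counts were chosen after the values were seen. In all 20 the range within WT exceeded the difference between the group means, as it did in 10 of 15 mitochondrial members and in 78.4% of all genes tested. Mitochondrial members had median deviations of 0.10, -0.02 and 0.25 in cKO and 0.02, -0.06 and -0.22 in WT.

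**Figure D4:**
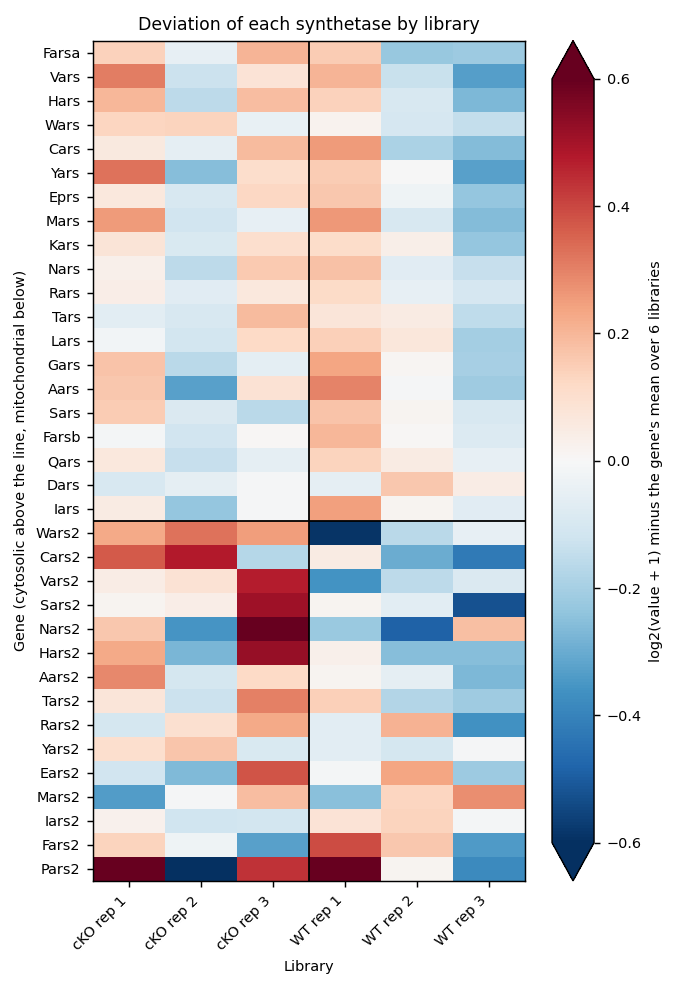
Deviation of each synthetase (rows, cytosolic above the line) from its own mean over 6 libraries on the log2 scale, with cKO libraries in the left 3 columns and WT libraries in the right 3. Among cytosolic members the columns of WT replicate 1 (median 0.16) and WT replicate 3 (median -0.20) differ most. In the mitochondrial rows cKO replicate 3 (median 0.25) and WT replicate 3 (median -0.22) differ most.

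Other measures differed between the same libraries. The summed level of 6 plasma cell markers was highest in the lowest synthetase library of each group, at 7131, 16139 and 7435 normalized counts in cKO replicates 1 to 3 and 8701, 8329 and 12951 in WT replicates 1 to 3. All 6 had reads in every library. The median deviation of these markers was -0.39, 0.88 and -0.13 in cKO and 0.30, -0.32 and 0.17 in WT. In cKO it was highest in replicate 2, like the sum. In WT it was highest in replicate 1, where cytosolic members were also highest, so it did not follow the sum there. The 10 macrophage markers summed to 331, 493 and 300.3 in cKO and 308, 227 and 108 in WT, and 6 of them had reads in all libraries of each group. The share of reads on mitochondrially encoded genes was 3.66%, 12.3% and 19.1% in cKO and 2.71%, 7.92% and 9.83% in WT. The part of these differences in the synthetase values was not tested. In bulk samples fewer cells of a type and less RNA per cell cannot be told apart.

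Of the ATF4 target genes outside the family, none passed the test between genotypes. Their median deviation was 0.17, -0.14 and 0.11 in cKO replicates 1 to 3 and 0.17, -0.01 and -0.14 in WT replicates 1 to 3. In the 13 synthetases linked to ATF4 it was 0.13, -0.12 and 0.09 in cKO and 0.18, -0.01 and -0.20 in WT. Both medians were lowest in WT replicate 3 and cKO replicate 2. Of the 22 targets outside the family, 9 lay above their own mean in WT replicate 3, against 0 of the 13 synthetases. Medians of other lists in cKO replicate 2 and WT replicate 3 were mixed. They were -0.09 and -0.13 for cytosolic elongation factors, and -0.09 and -0.10 for mitochondrial translation factors. For other genes of aminoacylation and tRNA quality they were 0.06 and -0.11, and for the scaffold genes -0.12 and -0.01. For genes of amino acid sensing and eIF2 phosphorylation they were -0.01 and 0.15. A role of ATF4 in these library differences was not tested. Atf4 itself, named after its values were seen, had 1619.8, 1837 and 2181 normalized counts in cKO and 1613, 1746 and 2222 in WT. It was highest in WT replicate 3, and the groups overlapped. Of these 13 synthetases 8 had a positive log2 fold change, with a median of 0.02 and 0 calls. Of 22 targets tested (26 listed), 0 passed in either direction, 8 had a positive log2 fold change, and the median was -0.07. Groups did not overlap in 18.2% of the 22, with 3 higher and 1 lower in cKO, beside 11.6% of all genes tested. The lower gene is not among those named below. Slc1a5, a glutamine transporter, had 1321, 1129 and 1434 normalized counts in cKO and 1112, 928 and 1035 in WT. Every cKO library lay above every WT library for Slc1a5, at a log2 fold change of 0.33 ± 0.14 (SE) and a limma adjusted p of 0.915. Trib3, a pseudokinase that feeds back on ATF4, had 9.22, 9.49 and 12.3 in cKO and 8.09, 6.39 and 3.42 in WT, where the groups did not overlap (adjusted p = 0.928 by limma). As 1 read was worth 1.90 and 2.04 normalized counts in cKO replicates 2 and 3, the Trib3 values rest on few reads. Nupr1, a stress-induced chromatin protein, had 1.63, 5.69 and 2.04 in cKO and 1.52, 0 and 0 in WT, too few reads for a fold difference.

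Of the 11 genes of amino acid sensing and eIF2 phosphorylation, 0 passed the test, and their median log2 fold change was -0.03. Groups did not overlap in 2 of the 11 (18.2%), each lower in cKO, beside 11.6% of all genes tested. Eif2ak3, the endoplasmic reticulum eIF2 kinase PERK, had 1052, 848 and 884 normalized counts in cKO and 1164, 1141 and 1392 in WT. All cKO libraries lay below all WT libraries, at a log2 fold change of -0.41 ± 0.14 (SE) and a limma adjusted p of 0.915. Ppp1r15b, a subunit of the phosphatase that reverses this phosphorylation, was apart in the same direction, with 1144, 1008 and 1087 in cKO and 1254, 1183 and 1321 in WT (adjusted p = 0.918 by limma). Sesn2, which senses leucine for the mTORC1 pathway, had 61.3, 91.1 and 104 in cKO and 45.5, 59.6 and 77.7 in WT, with overlap.

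Other genes of aminoacylation and tRNA quality, which form or convert charged tRNA or process, export or proofread tRNA, held 0 calls among 16 tested, with 9 positive and 7 negative log2 fold changes and a median of 0.06. Groups did not overlap in 6 of the 16 (37.5%), 4 higher and 2 lower in cKO, where 11.6% of all genes were apart. Xpot, the exporter that carries tRNA out of the nucleus, had 475, 503 and 498 normalized counts in cKO and 419, 364 and 407 in WT. Its log2 fold change was 0.31 ± 0.13 (SE), with a limma adjusted p of 0.915. Trmt61a, the catalytic subunit of a tRNA adenosine methyltransferase, had 94.9, 112 and 129 in cKO and 82.9, 85.2 and 66.6 in WT. Pus1, which makes pseudouridine in tRNA, had 268, 251 and 237 in cKO and 229.5, 229.95 and 176 in WT. All 3 kept their sign under each of the 19 alternatives, and none passed the adjusted test in any of them.

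The factors that receive charged tRNA gave 0 calls as well. Of 6 cytosolic elongation factor genes 4 were positive, with a median log2 fold change of 0.11. Eef1d, an exchange factor of the elongation complex, had 1532, 1209 and 1565 normalized counts in cKO and 1239, 1247 and 1154 in WT. Eef1g had 5941, 4999 and 6383 in cKO and 5334, 5098 and 5073 in WT. The kinase gene Eef2k was low, at 8.68, 38.0 and 14.3 in cKO and 15.2, 5.32 and 6.83 in WT. The groups overlapped in all 3. Of 9 mitochondrial translation factors 4 were positive, with a median of -0.06, so they did not share the positive median of the mitochondrial synthetases, and that difference was not tested. Mtif3, a mitochondrial initiation factor, had 138, 94.9 and 93.96 in cKO and 106, 91.6 and 66.6 in WT. Gfm1, a mitochondrial elongation factor, had 365, 321 and 337 in cKO and 403, 401 and 341 in WT. Mtrf1, of the release factor family, had 41.8, 45.6 and 28.6 in cKO and 46.5, 44.7 and 38.4 in WT. The groups overlapped in these 3 as well.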

How the data were processed

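Sequencing libraries of 3 cKO and 3 WT samples were grouped by title. Tools listed in the submitters' processing notes, with no version or role, are DESeq2, HTSeq, SAMtools, TopHat2, HISAT and HISAT2, and the build is mm10. The authors deposited a signal per gene that equals counts over each library's size factor. They also deposited a log2 fold change with its standard error, a test score (Wald statistic) and p-values, per the file headers. Dividing each column by the worth of 1 read gave whole reads within 0.01 (100% of values in each library), so reads were recovered. The sources used here give neither annotation release nor strand setting. In normalized counts, 1 read came to 0.542 to 2.04 in cKO libraries and 0.506 to 1.06 in WT libraries, the step that limits low genes.

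Because the columns are not raw counts, log2(value + 1) was fitted by limma-trend (limma 3.58.1, R 4.3.3). The fit took all 6 libraries and 14678 genes whose mean reached 1, with genotype alone and Benjamini-Hochberg adjustment over all genes. Fold changes on this scale understate changes of low genes. All 35 members passed the filter. Alternatives on recovered reads used edgeR 4.0.16, DESeq2 1.42.0 and limma-voom, and the procedures were tested on simulated data. Lengths and positions came from GENCODE M21 (GRCm38, 19563 of the identifiers found), and promoters from RefSeq. A further promoter match is not reported here. Merged exons include rare isoforms.

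Per-library values are given for members whose groups do not overlap, the 3 highest and 3 lowest by level per length, members of compared pairs and members whose sign changed with scaling. From each companion list the 3 genes with the smallest p are named. The members, lists and alternatives were chosen with earlier results of these data known.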

Additional observations from a re-analysis of the deposited data

How the results depend on the processing

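Under 19 alternatives no synthetase passed the adjusted test in any fit (smallest adjusted p = 0.358, Vars2, with a term for replicate 1 and cKO replicate 2 left out), and no companion gene did either. Over all genes, where 0 were called, DESeq2 called 20, the replicate block 1, a term for replicate 1 called 3, and the same term called 16 once cKO replicate 2 was dropped. Leaving out single libraries gave 0 calls each time. The labels call the mice paired without tying the numbers to it. Deviations of equal numbers correlated at 0.49, 0.055 and 0.20, with replicate 2 of cKO closer to replicate 3 of WT (0.17). Deviations from a mean of 3 libraries depend on one another, and the replicate 1 libraries were the deepest. These correlations therefore cannot decide whether numbers mark pairs, and the test without the block was kept. With the block 2 members had an unadjusted p under 0.05. Of the 35 members, 15 were higher and 4 lower in cKO under each alternative, and 16 changed sign.

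Library totals alone gave log2 fold changes of -0.016 for Eprs, -0.021 for Kars, -0.019 for Mars, -0.058 for Nars, -0.059 for Rars and -0.059 for Tars, beside a median of -0.078 over all genes. Quantile normalization gave 0.011 for Gars and 0.028 for Lars, and limma-voom gave 0.00088 for Lars. Ears2 was 0.0012 by DESeq2 and 0.014 by edgeR. In replicates 2 and 3 alone Lars was 0.071 and Ears2 0.046. The term for replicate 1 without cKO replicate 2 gave 0.055 for Aars, 0.038 for Lars, 0.17 for Ears2 and 0.35 for Pars2. With single libraries left out, values ranged from -0.17 to 0.099 for Aars, -0.19 to 0.13 for Ears2, -0.036 to 0.16 for Eprs, -0.35 to 0.018 for Fars2, -0.14 to 0.00018 for Farsb, -0.14 to 0.078 for Gars, -0.043 to 0.13 for Kars, -0.11 to 0.064 for Lars, -0.054 to 0.21 for Mars, -0.26 to 0.036 for Mars2, -0.051 to 0.12 for Nars, -0.74 to 0.47 for Pars2, -0.024 to 0.084 for Rars, -0.15 to 0.0070 for Sars, -0.070 to 0.074 for Tars and -0.015 to 0.28 for Yars. The median ranged from -0.047 to 0.10 for cytosolic and from 0.080 to 0.31 for mitochondrial members. The summed cytosolic over mitochondrial level averaged 8.07 per kb of merged exons, 7.90 to 8.25 with single libraries left out, and 6.29 per kb of coding length. The cause of these shifts was not tested.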
